A study of Mus musculus with 20 samples.

Results

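The genes described here are 40 genes of DNA replication and S phase, taken by name from the 19057 genes that the probes of the array name. They fall into 8 groups by role. The MCM group holds Mcm2, Mcm3, Mcm4, Mcm5, Mcm6, Mcm7 and Mcm10. The licensing group holds Orc1, Orc2, Orc6, Cdc6, Cdt1 and Gmnn. The partners of the helicase are Cdc45, Gins1, Gins2 and Gins3. Polymerase and primase subunits are Pola1, Pola2, Prim1, Prim2, Pold1, Pold2, Pole and Pole2. The clamp and clamp loader are Pcna, Rfc2, Rfc3, Rfc4 and Rfc5. Rpa1, Rpa2, Fen1 and Lig1 bind single strands or finish the lagging strand, Rrm1, Rrm2 and Tyms supply nucleotides, and Ccne1, Ccne2 and E2f1 control entry into S phase.

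RNA was measured in mouse embryonic fibroblasts (MEF) and mouse embryonic stem cells (ESC) of the C57BL/6 strain that carried the Mysm1tm1a(KOMP)WTSI allele on no, 1 or both chromosomes. Mysm1 encodes a deubiquitinase of histone H2A. The 6 groups were 4 wild type MEF (wt), 4 heterozygous MEF (Mysm1+/tm1a, het), 3 homozygous MEF (Mysm1tma1/tm1a in the labels' spelling, hom), and 3 ESC arrays of each of the same genotypes. The labels describe the MEF as coming from 3 to 4 animals a group and the ESC as independently passaged samples. The label of the ESC cell type reads embryonic stem cells but abbreviates them as MSCs. The number of ESC lines is not stated, so p-values within ESC measure the spread between these samples, which may be technical.

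During replication, the origin recognition complex, CDC6 and CDT1 load the MCM hexamer on DNA, and geminin, the product of Gmnn, blocks CDT1 after origins have fired. CDC45 and the GINS complex then join the MCM hexamer to form the active helicase. Polymerase alpha and primase lay the primers, polymerases epsilon and delta extend them, and the clamp PCNA, loaded by the RFC complex, holds the polymerases on DNA. RPA covers single strands, and FEN1 and LIG1 trim and join the lagging strand fragments. Ribonucleotide reductase (RRM1 and RRM2) and thymidylate synthase (TYMS) make the nucleotides. Cyclin E (Ccne1, Ccne2) and the factor E2F1 drive cells from G1 into S phase, and E2F factors are known to bind near the start of many of these genes. Mouse ESC are known for a short G1 phase and a large share of cells in S phase, whereas fibroblasts pass through G1 more slowly.

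Promoter windows are shown because many of them hold words of the E2F site. RefSeq (GRCm38.p6) gave windows from 250 bases before to 50 after the start for 32 of the 40 members. Mcm4, Gmnn, Gins1, Gins2, Prim2, Pole, Rfc2 and Ccne2 were not matched. The windows were searched on both strands for 4 words of the E2F site: TTTCCCGC, TTTCGCGC, TTTGCCGC and TTTGGCGC. At least 1 of these words lay in the windows of 13 of 32 members (40.6%), against 704 of 27025 genes in the whole table (2.61%). The 6 windows printed here are written 5′ to 3′ along the gene, with matches to these words in capitals. They show the overlapping words of Mcm5 and Mcm6, single words in Orc1 and Cdt1 and the neighbouring words of Rfc3. For contrast, Mcm10 held no whole match. Its window ends in the letters of TTTGGCGC without the final C, and the base beyond the window was not searched.
Mcm5: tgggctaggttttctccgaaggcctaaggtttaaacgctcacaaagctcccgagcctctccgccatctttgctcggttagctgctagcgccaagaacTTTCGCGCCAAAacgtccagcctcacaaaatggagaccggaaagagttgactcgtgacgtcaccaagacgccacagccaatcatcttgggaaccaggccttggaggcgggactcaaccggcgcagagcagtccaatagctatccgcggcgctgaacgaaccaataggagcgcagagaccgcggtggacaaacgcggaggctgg
Mcm6: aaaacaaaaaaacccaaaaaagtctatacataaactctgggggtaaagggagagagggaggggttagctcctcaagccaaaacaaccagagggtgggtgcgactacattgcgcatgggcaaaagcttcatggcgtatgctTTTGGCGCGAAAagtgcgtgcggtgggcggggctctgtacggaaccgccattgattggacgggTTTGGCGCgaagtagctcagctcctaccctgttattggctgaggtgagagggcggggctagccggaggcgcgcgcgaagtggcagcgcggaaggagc
Orc1: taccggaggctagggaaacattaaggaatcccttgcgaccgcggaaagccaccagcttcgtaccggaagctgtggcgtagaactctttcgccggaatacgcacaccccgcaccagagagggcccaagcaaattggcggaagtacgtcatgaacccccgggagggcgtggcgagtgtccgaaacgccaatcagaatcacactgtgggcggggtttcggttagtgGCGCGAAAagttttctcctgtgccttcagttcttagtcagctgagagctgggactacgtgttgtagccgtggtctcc
Cdt1: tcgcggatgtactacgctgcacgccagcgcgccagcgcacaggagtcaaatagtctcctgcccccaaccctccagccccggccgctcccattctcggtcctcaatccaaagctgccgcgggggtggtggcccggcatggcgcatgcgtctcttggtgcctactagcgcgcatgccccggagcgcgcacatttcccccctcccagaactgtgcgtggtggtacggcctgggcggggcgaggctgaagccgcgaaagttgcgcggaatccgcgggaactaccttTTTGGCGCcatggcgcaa
Rfc3: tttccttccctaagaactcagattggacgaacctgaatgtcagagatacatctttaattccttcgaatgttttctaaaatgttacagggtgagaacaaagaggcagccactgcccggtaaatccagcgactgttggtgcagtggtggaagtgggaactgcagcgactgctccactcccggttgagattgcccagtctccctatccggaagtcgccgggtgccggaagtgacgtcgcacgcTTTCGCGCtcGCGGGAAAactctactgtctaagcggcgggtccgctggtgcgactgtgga
Mcm10: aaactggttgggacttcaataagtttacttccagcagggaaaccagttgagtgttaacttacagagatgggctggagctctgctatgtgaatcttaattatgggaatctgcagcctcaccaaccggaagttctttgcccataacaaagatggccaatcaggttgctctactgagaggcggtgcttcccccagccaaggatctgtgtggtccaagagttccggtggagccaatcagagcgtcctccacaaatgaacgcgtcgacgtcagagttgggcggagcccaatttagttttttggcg
The Mcm5 window is chr8:75109259-75109558 on the plus strand and the Mcm6 window chr1:128359656-128359955 on the minus strand. The Orc1 window is chr4:108579204-108579503 (plus), the Cdt1 window chr8:122567765-122568064 (plus), the Rfc3 window chr5:151651159-151651458 (minus) and the Mcm10 window chr2:5012742-5013041 (minus). In Mcm5 a forward and a reverse word shared bases, with their first bases 153 and 149 before the start. Mcm6 held such a pair 110 and 106 bases before the start, and a further word 47 bases before it. The Orc1 word began 27 bases before the start, the Cdt1 word 32 bases after it, and the pair of Rfc3 words at -10 and 0. The other members with a match were Mcm3, Mcm7, Cdc6, Gins3, Pola1, Pold1, Pole2 and Lig1, the last in 1 of its 3 windows. Of the 19 matches, 11 began before the start and 8 at or after it. The CCAAT box, searched as CCAAT, was in 20 of the 32 members (62.5%) and 41.1% of genes, and the CHR element of mitotic genes, searched as TTTGAA, in 5 of 32 (15.6%) and 20.2% of genes. A match is a description of the letters and not a bound site.

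**Figure D1:**
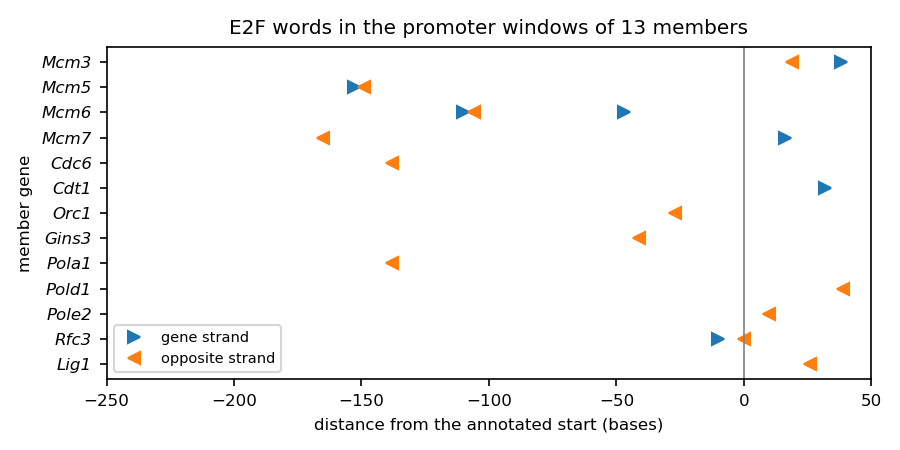
Start positions of the 19 E2F words relative to the annotated start (x axis, bases, 0 at the start) for the 13 members that hold one (y axis), with marker shape for the strand. The words lie between -165 and 39 bases, and Mcm3, Mcm5, Mcm6, Mcm7 and Rfc3 hold more than 1.

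Each member was read by its brightest probe among those detected (detection p under 0.01) on at least 3 arrays, as the log2 of background-corrected, quantile-normalized intensity. Comparisons between cell types use values normalized over all 20 arrays, and those between genotypes use values normalized within the cell type, so levels of a gene differ slightly between them. Of the 40 members, 35 were tested over all 20 arrays and within ESC, and 33 within MEF. Gmnn, Pola1, Prim1, Pole2 and Pcna were not tested: their probes were detected on no array, except that of Pcna on 1 ESC wt array. This says only that these probes stayed near background. Orc1 and Orc2 were also too dim to be tested within MEF. A chosen probe carried on average 31.4 to 52.0 beads an array, and the median standard error between beads was 3.58% of the signal. The arrays resembled each other, with median signals of 53.2 to 59.9 intensity units apart from MEF hom 3 at 95.7, and with 28.5% to 31.8% of 45281 probes detected. The number of arrays a group, 3 or 4, limits the precision.

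The targeted gene was read first, as a check of the labels, by the Mysm1 probe ILMN_3119954. In MEF the Mysm1 level was 7.35 ± 0.24 (log2, SD, n = 4) in wt, 6.52 ± 0.16 (n = 4) in het and 5.28 ± 0.25 (n = 3) in hom. The hom difference of -2.07 ± 0.19 (SE) passed limma's test (adjusted p = 0.00460), and the exact two-sided permutation p of 0.0571 is the smallest that 3 against 4 arrays can give. In the same test the het difference from wt of -0.84 ± 0.17 did not pass. Neither did hom against het, at -1.24 ± 0.19 (adjusted p = 0.302). In wt ESC the level was 7.61 ± 0.11, whereas het ESC had 5.94 ± 1.29 and hom ESC 5.57 ± 0.84 (each n = 3). By limma neither difference from wt passed in ESC. They were -2.04 ± 0.57 in hom (adjusted p = 0.297) and -1.67 ± 0.57 in het (adjusted p = 0.952). The library labelled ESC het 1 had no detected Mysm1 signal (4.45), below the ESC hom arrays, and the library labelled ESC hom 1 had 6.47, close to the het arrays 2 and 3 at 6.69 and 6.67. ESC hom 2 and hom 3 had 5.42 and 4.81. Mysm1 was not detected on ESC hom 3 or MEF hom 3 (4.99) either. Results that rest on the libraries labelled ESC het 1 and ESC hom 1 are therefore given with and without them. By markers, the ESC were pluripotent cells and the MEF fibroblasts: 12 of 13 pluripotency genes passed as higher in ESC wt and 11 of 11 tested fibroblast genes as higher in MEF wt.

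The main contrast in these genes was between the cell types. In wt ESC, 27 of 35 tested members were higher than in wt MEF and none was lower, against a background of 30.4% of 17067 probes higher and 25.8% lower (limma, adjusted p under 0.05 over all probes). The median member difference was 1.31 on the log2 scale (1.26 with Orc1 at the bound its MEF background allows), and that of all probes was 0.05. The helicase, the polymerases, the clamp loader and the lagging strand enzymes were higher nearly throughout, whereas none of the 3 nucleotide genes passed in this comparison. In bulk samples, a larger share of cells in S phase and more RNA per cell cannot be told apart.

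The MCM group had 6 of 7 members higher, with a median difference of 1.66. Mcm5, a subunit of the hexamer, was at 12.38, 12.36 and 12.21 in the 3 ESC wt arrays and at 10.24, 10.56, 10.83 and 10.28 in the 4 MEF wt arrays. Every ESC array lay above every MEF array, by a difference of 1.84 ± 0.14 (SE, adjusted p = 6.56e-09). Mcm10, which acts when the loaded helicase is activated, was at 10.74, 10.75 and 10.71 in ESC wt and at 7.66, 8.38, 8.84 and 7.79 in MEF wt. This was the largest difference of the members, 2.57 ± 0.27 (adjusted p = 3.67e-07), and the MEF arrays were spread over more than a log2 unit while the ESC arrays nearly coincided. Mcm2, Mcm3, Mcm4 and Mcm6 were higher by 2.11, 1.66, 1.18 and 1.31, with adjusted p between 9.86e-05 and 0.00763. The 2 dimmer Mcm4 probes gave 0.30 (adjusted p = 0.648) and 0.44 (adjusted p = 0.530) and did not pass. Mcm7 missed the threshold at 1.26 ± 0.54 (adjusted p = 0.0532): its MEF wt arrays were split into 7.10 and 6.88 (wt 1 and wt 4) and 8.79 and 8.75 (wt 2 and wt 3). A second, dimmer Mcm7 probe gave 1.87 ± 0.21.

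Among the licensing genes 4 of 5 were higher. Cdt1, which brings the MCM hexamer to the origin, was at 10.80, 10.55 and 10.86 in ESC wt and 8.24, 8.48, 8.78 and 8.40 in MEF wt. The groups were far apart, with a difference of 2.26 ± 0.15 (adjusted p = 1.64e-09). Orc1, the ATP-binding subunit of the origin recognition complex, was at 5.95, 5.81 and 5.89 in ESC wt and at 4.23, 4.50, 4.64 and 4.35 in MEF wt, where it was detected on 0 of 4 arrays. Its level was therefore at least 1.83-fold higher in ESC wt, a bound set against the dimmest probes detected on each MEF array. The limma test (adjusted p = 2.66e-07) was not of this bound but of the difference of 1.45 ± 0.15 from the MEF background values. Orc1 passed the detection filter only through its ESC arrays. Cdc6, the loader of the hexamer, was higher by 1.32 ± 0.16 (adjusted p = 2.83e-06) and Orc6 by 1.08 ± 0.25 (adjusted p = 0.00125). Orc2 had a difference of 0.29 ± 0.20 (adjusted p = 0.223) near the detection limit of both cell types.

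Of the helicase partners, 3 of 4 were higher. Gins1 was at 9.39, 9.14 and 9.25 in ESC wt and 6.98, 7.17, 7.43 and 7.15 in MEF wt, a difference of 2.08 ± 0.15 (adjusted p = 5.28e-09). Cdc45 was at 8.99, 8.82 and 9.06 against 7.41, 8.24, 8.33 and 7.51, a difference of 1.08 ± 0.28 (adjusted p = 0.00326). Both genes were without overlap, but for Cdc45 the MEF arrays wt 2 and wt 3 came within 0.6 of the lowest ESC array. Gins3 was higher by 0.58 ± 0.20 (adjusted p = 0.0180). Gins2 did not follow the other GINS genes at its brightest probe, with -0.17 ± 0.27 (adjusted p = 0.603). Its 3 tested probes gave -0.18, -0.17 and 0.67, the only member of the 14 with several tested probes whose probes differed in sign.

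All 5 tested polymerase and primase genes were higher, with a median difference of 1.63. Pold1, the catalytic subunit of polymerase delta, was at 10.93, 10.56 and 10.93 in ESC wt and 9.05, 9.17, 9.45 and 9.04 in MEF wt. The difference was 1.63 ± 0.15 (adjusted p = 1.04e-07), and the MEF arrays were close together. Pola2, the regulatory B subunit of polymerase alpha, was at 9.28, 9.11 and 9.15 against 7.18, 7.52, 7.77 and 7.21, a difference of 1.77 ± 0.17 (adjusted p = 1.33e-07). Pole, Pold2 and Prim2 were higher by 1.79, 1.39 and 0.72, with adjusted p between 2.18e-05 and 0.00431.

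The 4 tested clamp loader genes were all higher, by a median of 1.12. Rfc5 was at 10.27, 10.00 and 10.00 in ESC wt and 7.81, 7.90, 8.27 and 7.74 in MEF wt, a difference of 2.16 ± 0.16 (adjusted p = 5.15e-09). Rfc4 was at 7.90, 7.89 and 7.96 against 6.45, 6.20, 6.06 and 6.82, a difference of 1.53 ± 0.20 (adjusted p = 5.61e-06). The ESC arrays of both genes lay above all MEF arrays. Dimmer probes gave smaller differences, 0.86 for Rfc5 and 0.46 (adjusted p = 0.0254) for Rfc4. Rfc2 was higher by 0.70, with 0.54 to 0.82 at its 3 other probes, and Rfc3 by 0.65.

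Rpa1, Rpa2, Fen1 and Lig1 were all higher, by a median of 1.32. Lig1, the ligase of the lagging strand, was at 10.24, 9.86 and 10.17 in ESC wt and 7.82, 7.45, 7.77 and 7.83 in MEF wt, a difference of 2.37 ± 0.19 (adjusted p = 1.45e-08). Rpa2, the middle subunit of RPA, was at 8.64, 8.88 and 8.94 against 6.72, 7.79, 7.68 and 7.17, a difference of 1.48 ± 0.24 (adjusted p = 5.11e-05). Neither gene overlapped between the groups. Rpa1 was higher by 1.16 ± 0.20 (adjusted p = 9.43e-05), and Fen1 by 1.15 ± 0.30 (adjusted p = 0.00387).

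The nucleotide genes did not pass. Tyms was at 9.32, 9.36 and 9.44 in ESC wt and 8.68, 9.17, 9.45 and 8.73 in MEF wt, with a difference of 0.36 ± 0.22 (adjusted p = 0.166). Rrm2, the subunit of ribonucleotide reductase that varies through the cell cycle, was at 8.80, 9.16 and 9.58 against 7.83, 9.32, 9.56 and 7.75, with 0.56 ± 0.49 (adjusted p = 0.340). Rrm1 gave -0.19 ± 0.38 (adjusted p = 0.692). In each of these genes MEF wt 2 and wt 3 lay above wt 1 and wt 4, and for Rrm1 and Rrm2 the high pair reached the ESC arrays or lay above them. A missed threshold does not show that the levels were alike.

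Of the G1 to S genes, Ccne1 was higher and the others did not pass. Ccne1 was at 8.43, 8.13 and 8.39 in ESC wt and 5.45, 6.89, 7.01 and 5.38 in MEF wt, a difference of 2.13 ± 0.41 (adjusted p = 2.68e-04). Its relative Ccne2 had the opposite sign, -0.80 ± 0.42 (adjusted p = 0.118), with 4.76, 6.00 and 5.90 in ESC wt and 5.64, 6.91, 7.12 and 5.74 in MEF wt. The Ccne2 probe was detected on only 2 of the 3 ESC wt arrays. E2f1 was at 9.14, 8.55 and 9.10 against 7.93, 8.64, 8.83 and 8.17, with 0.54 ± 0.24 (adjusted p = 0.0632). Its groups overlapped, since ESC wt 2 lay below MEF wt 2 and wt 3, and it passed without ESC wt 2 (adjusted p = 0.0268), MEF wt 2 (0.0493) or MEF wt 3 (0.0241).

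**Figure D2:**
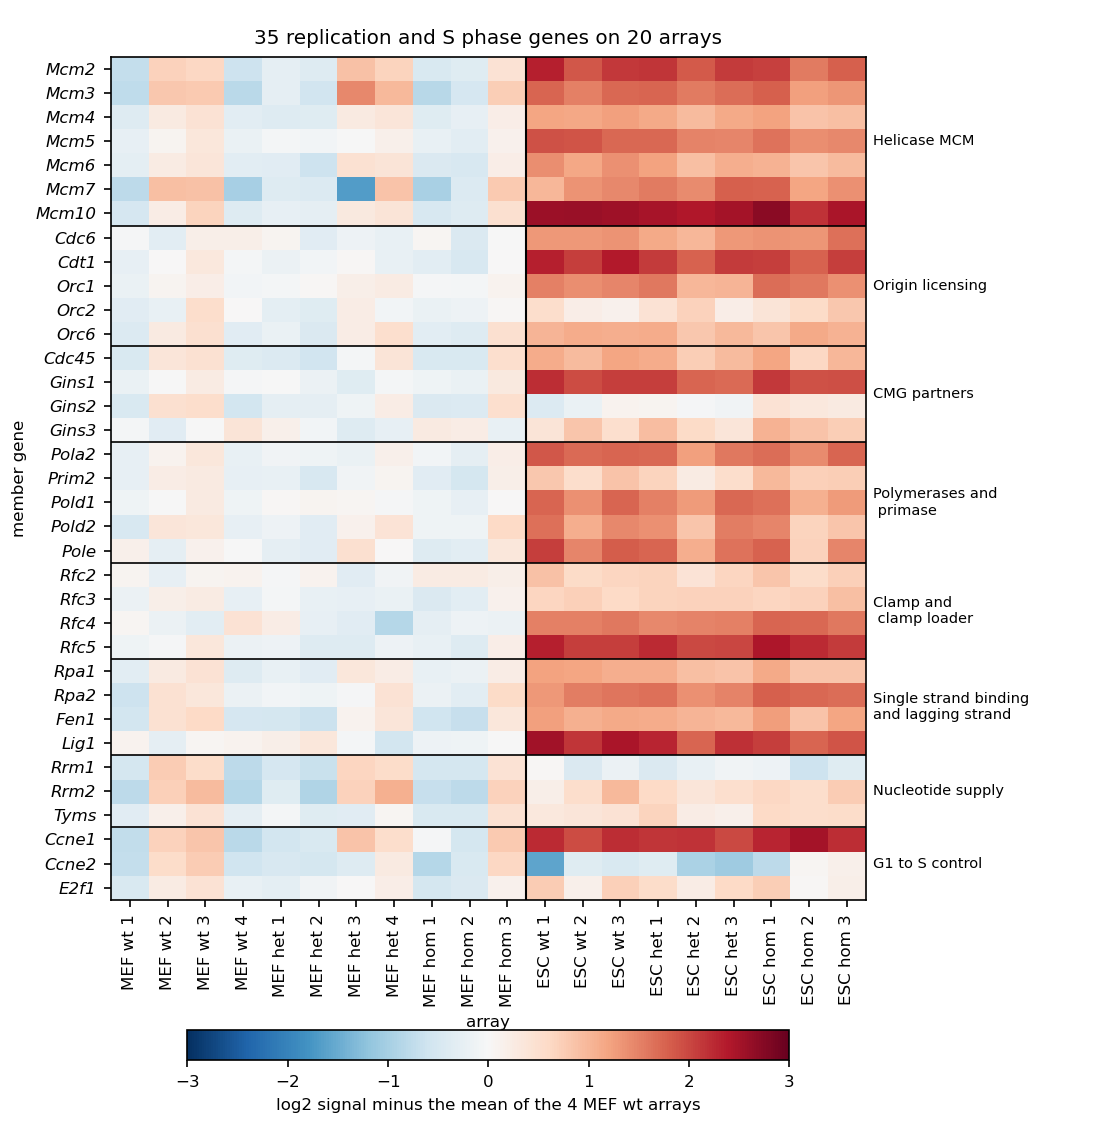
Colour map of the 35 tested members (rows, by role) on the 20 arrays (columns): log2 signal minus the mean of the 4 MEF wt arrays, red higher and blue lower. The 9 ESC columns are red in most rows, and Orc2, Gins2, Rrm1, Rrm2, Tyms, Ccne2 and E2f1 are the pale or mixed ones.

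The difference recurred in the other genotypes, which use other arrays. In het, 30 of 35 members were higher in ESC (28.8% of all probes), with a median of 1.21 against 0.04 over all probes. In hom, 30 were higher (29% of all probes), with a median of 1.42 against 0.05. Without the library labelled ESC het 1 or that labelled ESC hom 1 the respective counts were 27 and 27, with probe shares not given here. Without both, 27 members passed in wt, 26 in het (23.7% of probes higher) and 27 in hom (24.7%). Across the genotypes, 27 members passed in all 3 comparisons, 3 in 2 of them and 5 in none. The share of all probes higher in all 3 is not given here, but it cannot exceed the smallest single share, 28.8%. Without both libraries, 24 passed in all 3 comparisons, 2 in 2, 4 in 1 and 5 in none, where the share of probes higher in all 3 cannot exceed 23.7%. With all arrays, those in 2 were Mcm7, Orc2 and Tyms, whose differences were 0.53 (adjusted p = 0.0491) in het and 0.71 (adjusted p = 0.0164) in hom for Tyms. Those in none were Gins2, Rrm1, Rrm2, Ccne2 and E2f1. For 25 members all 9 ESC arrays lay above all 11 MEF arrays, as did 20.3% of all probes. Without both libraries it was again 25 members, and 20.6% of probes. With all arrays, Orc1 is among these 25 and among the 27 called in all 3 comparisons, though detected on no MEF array. Orc2, called in het and hom, was detected on no het or hom MEF array. For these genes the MEF side is background.

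**Figure D3:**
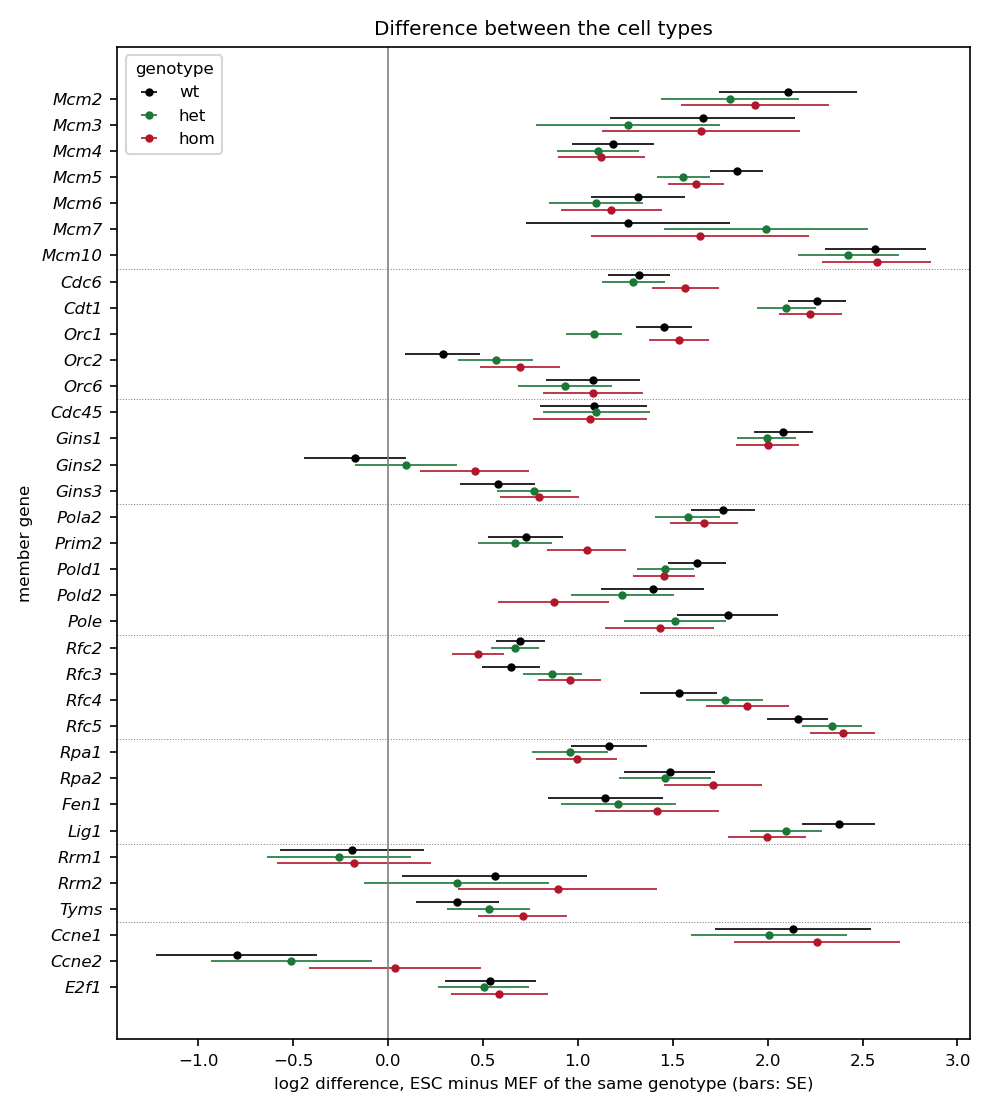
Fitted log2 difference, ESC minus MEF of the same genotype (x axis, bars SE), for the 35 members (y axis, by role) in wt (black), het (green) and hom (red). Most members lie between 0.5 and 2.6 in all genotypes, and Gins2, Rrm1 and Ccne2 lie around or below 0 in wt.

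Only MEF wt 4 shared a slide with ESC arrays, so slide and cell type were nearly confounded. With slide as a fixed block, 14 of 35 members passed in wt, with a median of 1.40, 25 in het and 27 in hom. The same fit called 7.29%, 15.2% and 18.8% of all probes higher. Cdc45 (adjusted p = 0.118) and Rpa2 (adjusted p = 0.0551) were among those that lost the call in wt, with differences of 1.18 and 1.44. With slide as a random block 29, 30 and 31 passed, beside 34.6%, 31.6% and 31.8% of probes higher.

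The other genes of the cell cycle gave a mixed picture in the same comparison. Of 31 tested further replication genes, 21 were higher and 1 lower, with a median of 1.20. The strongest were Rnaseh2a, a subunit of ribonuclease H2, at 2.08 ± 0.14 (adjusted p = 9.56e-10), Pold3 of polymerase delta at 2.07 ± 0.14, Timeless of the fork protection complex at 1.90 ± 0.13 and the uracil glycosylase gene Ung at 3.26 ± 0.23. Genes of G2 and mitosis were higher in 14 of 19 cases and lower in none, with a median of 0.89, among them Cdc20 at 1.44 ± 0.12 (adjusted p = 1.61e-08) and Cenpa at 1.24 ± 0.17. Of the other E2F and DP factors, 5 of 8 were higher and 1 lower, including E2f4 at 1.79 ± 0.30 and Tfdp2 at 1.38 ± 0.24. G1 cyclins and kinases went both ways: 2 of 7 were higher, Cdc25a at 1.56 ± 0.37 and Cdk2 at 0.48 ± 0.15, and 2 lower, Ccnd2 at -3.18 ± 0.54 and Cdk6, which was at least 1.25-fold lower. Cell cycle inhibitors and retinoblastoma family genes were lower in 5 of 9 cases and higher in 1. They included Cdkn1c at -3.26 ± 0.57, Cdkn1a, which encodes p21, at -1.90 ± 0.52 and Cdkn2c at -1.78 ± 0.24. The counts for replication and mitotic genes thus leaned to ESC and those for inhibitors to MEF, and the part of cell cycle phase in these differences was not tested.

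Within MEF, no member passed in any genotype comparison. The background was 0.00661% (1 of 15125 probes) for hom against wt, 0.00661% for het against wt and 0.00661% for hom against het, and at an unadjusted p under 0.05 it was 385, 224 and 242 probes. Of the members, 0, 0 and 1 were under that unadjusted limit. In hom 28 of 33 members were below wt, with a median of -0.13 against 0.01 over all probes, but the member medians of single arrays had a spread of 0.37 (SD within groups) and the choice of arrays moved this value. Without hom 3 the median was -0.36 and without wt 3 it was 0.02. The het median, -0.05, was 0.04 without wt 3.

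Rfc2 had the smallest p in hom against wt. It was at 9.80, 9.47, 9.79 and 9.81 in wt, 9.69, 9.82, 9.40 and 9.61 in het and 9.96, 9.95 and 9.90 in hom. At this probe, the brightest of Rfc2, the hom arrays lay above all others. The difference was 0.22 ± 0.13 over wt (adjusted p = 0.999) and 0.30 ± 0.13 over het (adjusted p = 1.00). The dimmer Rfc2 probes did not share this separation, on the scale normalized over both cell types. ILMN_2424690 spanned 7.79 to 8.41 in hom and 7.77 to 8.48 in wt. For ILMN_2749484 the spans were 8.43 to 8.59 in hom and 8.31 to 8.79 in wt. For ILMN_2749487 they were 8.18 to 8.46 in hom and 8.28 to 8.51 in wt. Cdt1 was at 8.34, 8.57, 8.87 and 8.50 in wt, 8.40, 8.50, 8.60 and 8.35 in het and 8.27, 8.09 and 8.58 in hom, where the groups overlapped. Its hom difference was -0.25 ± 0.17 (adjusted p = 0.999).

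The other members with the smallest p also overlapped between genotypes. Rfc3 was at 5.91, 6.27, 6.32 and 5.82 in wt, 6.02, 5.85, 5.83 and 5.89 in het and 5.64, 5.74 and 6.20 in hom, with -0.22 ± 0.19 for hom and -0.18 ± 0.17 for het. Rfc5 was at 7.91, 8.01, 8.37 and 7.85 in wt, 7.89, 7.64, 7.66 and 7.89 in het and 7.81, 7.65 and 8.23 in hom, with -0.26 ± 0.17 for het. For Rfc4, the values were 6.57, 6.33, 6.18 and 6.95 in wt, 6.73, 6.26, 6.18 and 5.63 in het and 6.23, 6.35 and 6.33 in hom, with -0.31 ± 0.24 for het. Het 4 was the lowest array for Rfc4, and without it the het difference was -0.12. Between hom and het, Pold1 had -0.16 ± 0.13, from 9.30, 9.35, 9.32 and 9.22 in het and 9.13, 9.02 and 9.26 in hom. Gins3 had 0.24 ± 0.22, from 5.44, 5.20, 4.86 and 5.01 in het and 5.56, 5.51 and 5.05 in hom. Every one of these comparisons had an adjusted p of 0.999 or 1.00.

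No slide held both wt and hom MEF. With slide as a fixed block, which rests on het 4 to link the slides, the member median was -0.83 in hom against wt and -0.20 in het against wt, and no member passed. Within slide 1 the het median was -0.20. Within slide 4, which held 1 het and 2 hom arrays, the median of hom against het was -0.55 and 26 members passed. In that fit 8846 of 15125 probes passed, with the spread taken from a single pair of close hom arrays. Slide and genotype cannot be told apart here.

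What varied most among MEF arrays cut across the genotypes. The array was among the 5 highest of the 11 for 31 of 33 members on wt 3, 31 on hom 3, 26 on wt 2, 24 on het 4 and 22 on het 3, and for 3 to 9 members on each of the other 6 arrays. The same count over all probes is not given here. The division was not particular to the members, since other gene lists, described below, divided over the same arrays. Mcm3 shows the pattern: it was at 6.59, 8.14, 8.12 and 6.56 in wt, 7.10, 6.80, 8.77 and 8.31 in het and 6.53, 6.87 and 8.09 in hom. The 5 high arrays lay at 8.09 or above and the other 6 at 7.10 or below, in each genotype. Rrm2 was at 7.94, 9.40, 9.63 and 7.86 in wt, 8.37, 7.83, 9.40 and 9.75 in het and 8.05, 7.94 and 9.39 in hom. Fen1 was at 8.89, 9.87, 10.00 and 8.94 in wt, 8.91, 8.80, 9.52 and 9.78 in het and 8.84, 8.75 and 9.75 in hom. Mcm2, Rrm1 and Ccne1 divided the arrays in the same way.

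The members differed in how far they took part. The spread within MEF groups was 0.99 (SD) for Mcm7, 0.90 for Mcm3, 0.89 for Rrm2, 0.78 for Ccne1 and 0.67 for Rrm1. By contrast it was 0.13 for Pold1, 0.15 for Rfc2, 0.20 for Cdt1 and Gins1 and 0.21 for Mcm5. The median over members was 0.36, and that over all probes 0.31. On the scale of all 20 arrays, Mcm7 was at 7.10, 8.79, 8.75 and 6.88 in wt, 7.50, 7.48, 6.20 and 8.75 in het and 6.90, 7.46 and 8.67 in hom, so het 3, high for Mcm3, was its lowest array. A second Mcm7 probe, ILMN_1213616, was highest of all MEF arrays on het 3 (7.74 on the same scale), so the probes disagree there.

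Other lists moved with this division. The same 5 arrays were among the 5 highest for 6 or 7 of 7 tested skeletal muscle genes, whose median relative to the wt mean was 1.16 to 2.33 on them and -1.41 to -0.99 on the other 6. The summed skeletal muscle signal spanned 506 to 4116 intensity units in wt, 537 to 3365 in het and 651 to 7052 in hom. Of the 9 listed muscle genes, Ckm was detected on no MEF array and Myod1 on 1. Macrophage genes ran the other way in wt and het, with medians of 0.57 to 1.07 on the 4 low arrays and -1.04 to -0.35 on the 4 high ones, while in hom they were -0.19, -0.29 and -0.43. Their summed signal spanned 1087 to 5050 in wt, 1208 to 5038 in het and 1633 to 2204 in hom. Medians of the inhibitor list were 0.12 to 0.39 on wt 1, wt 4, het 1, het 2 and hom 1, -0.02 on hom 2, and -0.25 to -0.02 on the 5 high arrays. The fibroblast list had medians of 0.25 to 0.56 on the 6 low arrays and -0.52 to -0.06 on the 5 high ones. Genes of G2 and mitosis ran with the members, with -0.26 to -0.11 on the low arrays and 0.02 to 0.29 on the high ones. The part of these cell types in the division was not tested.

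**Figure D4:**
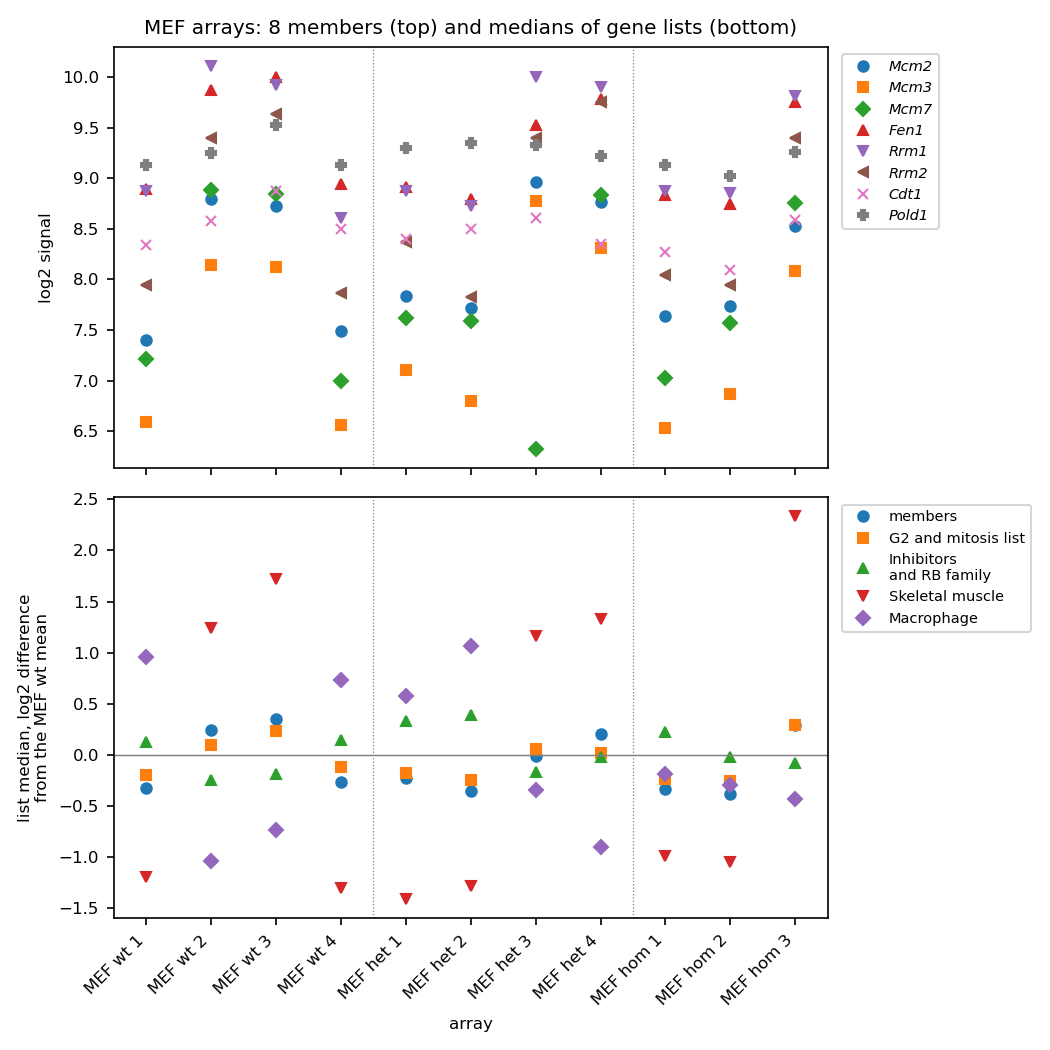
Top, log2 signal (y axis) of 8 members on the 11 MEF arrays (x axis, dotted lines between genotypes). Bottom, median of each gene list on the same arrays as a log2 difference from the MEF wt mean: on wt 2, wt 3, het 4 and hom 3 the member median is 0.20 to 0.35, on het 3 it is -0.01, and on the other 6 arrays -0.38 to -0.22.

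Within ESC, the fit without regard to replicate numbers called no member in any comparison. It also called 0% of 14502 probes in hom against wt, 0% in het against wt and 0% in hom against het, with 1748, 658 and 528 probes at an unadjusted p under 0.05 and with 4, 1 and 1 members under that limit. The member median was -0.08 in hom against wt, -0.12 in het against wt and 0.06 in hom against het. Without the libraries labelled ESC het 1 and hom 1 these were -0.14, -0.17 and 0.10, again with none called. Without ESC hom 2 the hom against wt median was 0.01. ESC arrays of the same number resembled each other across genotypes, so the fit with the number as a block is given as well.

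With the block, 601 probes passed in hom against wt, 1.88% of those tested being higher and 2.26% lower. Among the members 4 were lower, Mcm5, Mcm6, Cdt1 and Lig1, and 1 was higher, Gins2. These are 2 subunits of the helicase core, the factor that loads it, the lagging strand ligase and a GINS subunit. The 30 others did not pass, and the median stayed at -0.08 against 0.00 over all probes.

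Lig1 was at 10.18, 9.79 and 10.11 in wt, 9.93, 9.36 and 9.85 in het and 9.71, 9.37 and 9.51 in hom. Within the numbered pairs the hom minus wt differences were -0.47, -0.42 and -0.60. The hom arrays lay below all wt arrays, whereas het overlapped both. The fitted difference was -0.50 ± 0.09 with the block (adjusted p = 0.0233). A second Lig1 probe gave -0.40 (adjusted p = 0.0847) and another -0.04 (adjusted p = 0.904).

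Mcm5 was at 12.40, 12.38 and 12.22 in wt, 12.21, 11.98 and 11.95 in het and 12.12, 11.88 and 11.92 in hom. Every het and hom array lay below every wt array, with pair differences of -0.28, -0.50 and -0.30 in hom. The hom difference was -0.36 ± 0.07 with the block (adjusted p = 0.0277) and -0.36 ± 0.10 without it (adjusted p = 0.297). In het it was -0.28 ± 0.10 without the block (adjusted p = 0.952), the smallest p of the members in that comparison.

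Mcm6 was at 10.23, 9.98 and 10.21 in wt, 10.04, 9.71 and 9.90 in het and 9.86, 9.63 and 9.74 in hom. The hom arrays lay below all wt arrays, with pair differences of -0.37, -0.35 and -0.46 and a fitted -0.39 ± 0.09 (adjusted p = 0.0330 with the block, 0.323 without). Its other 2 probes gave -0.34 (adjusted p = 0.0597) and -0.24 (adjusted p = 0.201). In het the Mcm6 difference was -0.26 ± 0.12, without the block.

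Cdt1 was at 10.76, 10.50 and 10.83 in wt, 10.52, 10.19 and 10.54 in het and 10.49, 10.18 and 10.49 in hom. The pair differences of -0.27, -0.31 and -0.34 were even, and the hom arrays lay below all wt arrays by a narrow margin. The fitted difference was -0.31 ± 0.08 (adjusted p = 0.0495 with the block), close to the threshold. In het it was -0.28 ± 0.14 without the block.

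Gins2 was at 7.66, 7.86 and 8.17 in wt, 8.16, 8.03 and 7.96 in het and 8.53, 8.41 and 8.36 in hom. All hom arrays lay above all wt arrays, though the pair differences were uneven at 0.87, 0.55 and 0.18. The fitted difference was 0.53 ± 0.14 with the block (adjusted p = 0.0491) and 0.53 ± 0.15 without it (adjusted p = 0.297). Its other probes gave 0.40 (adjusted p = 0.124) and 0.19 (adjusted p = 0.310). Against het the hom difference was 0.38 ± 0.15 without the block (adjusted p = 0.995).

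Members just outside the threshold were Pole at -0.48 ± 0.13 (adjusted p = 0.0559), Mcm2 at -0.32 ± 0.09 (adjusted p = 0.0588) and Pold2 at -0.42 ± 0.13 (adjusted p = 0.0837). In hom against wt 12 of 35 members were lower in all 3 pairs (34.3%, against 23.8% of all probes) and 9 higher (25.7%, against 22.3%). In het against wt 19 were lower in all 3 pairs (54.3%, against 20.9%) and only Mcm7 higher (2.86%, against 16.8%). For Mcm7 this holds of the brightest probe only. A second, dimmer Mcm7 probe was lower in het in all 3 pairs, at 9.01, 8.89 and 9.03 against 9.25, 9.04 and 9.16 in wt. The libraries labelled ESC het 1 and hom 1 belong to the pairs of number 1. Over numbers 2 and 3, hom against wt had 18 members lower in both pairs (51.4%, against 34.1% of all probes) and 10 higher (28.6%, against 32.4%). Het against wt then had 26 lower (74.3%, against 34.9%) and 3 higher (8.57%, against 28.5%). In the pairs of numbers 2 and 3 the wt arrays were on slide 2 and the het and hom arrays on slide 3. Slide and genotype therefore cannot be told apart in these counts. With the block, 0.255% of probes (37) passed in het against wt and no member did, and 0% of probes passed in hom against het, with 1573 at an unadjusted p under 0.05. In hom against het the smallest member p after Gins2 belonged to Prim2, the large primase subunit, and Cdc6. Prim2 was at 7.66, 7.23 and 7.50 in het and 7.96, 7.70 and 7.74 in hom, with 0.33 ± 0.16. Cdc6 was at 6.42, 6.27 and 6.57 in het and 6.63, 6.61 and 6.94 in hom, with 0.31 ± 0.15. Neither passed, with an adjusted p of 0.995 for both.

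Without the libraries labelled ESC het 1 and hom 1, the blocked fit called 7 members lower in hom against wt: Mcm4, Mcm5, Mcm6, Pold1, Pold2, Pole and Lig1, with differences of -0.34 to -0.57. That fit called 3.94% of all probes higher and 3.65% lower. For Mcm4 this holds of the brightest probe: with all arrays it gave -0.21 (adjusted p = 0.156), and the 2 dimmer Mcm4 probes gave 0.41 (adjusted p = 0.319) and 0.53 (adjusted p = 0.249). Cdt1 (adjusted p = 0.0635) and Gins2 (adjusted p = 0.118) were then no longer called. In hom against het this fit called Ccne2 higher, by 1.08 ± 0.16 (adjusted p = 0.01), beside 1.15% of probes higher and 0.883% lower. Ccne2 was at 4.70, 5.83 and 5.74 in wt (detected on 2 of 3 arrays), 5.83, 5.27 and 5.16 in het and 5.42, 6.24 and 6.34 in hom. Numbers 2 and 3 thus gave the Ccne2 difference, and het 1 lay apart from the other het arrays. The het and hom arrays of numbers 2 and 3 were all on slide 3. No ESC slide held both wt and hom, so slide and the hom against wt differences cannot be told apart. Within slide 2 the het against wt median was -0.01, and within slide 3 the hom against het median was 0.10, with no member called in either.

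The blocked calls changed with the arrays used. Without ESC wt 2, wt 3, hom 2 or hom 3 no member passed, and the share of all probes called in either direction was 0.0138%, 0.441%, 0.0138% and 0.0621%. In those 4 fits the differences ranged over -0.56 to -0.43 for Lig1, -0.39 to -0.30 for Mcm5, -0.42 to -0.36 for Mcm6, -0.31 to -0.29 for Cdt1 and 0.52 to 0.71 for Gins2. Without wt 1 there were 2 calls, beside 1.75% of all probes called, and without hom 1 there were 6, beside 5.41%. Other lists in the same blocked fit had few calls: 0 of 31 further replication genes, 2 of 19 mitotic genes lower (Bub1b at -0.54 ± 0.10 and Kif11 at -0.52 ± 0.11) and 1 of 7 E2F and DP genes lower (Tfdp1 at -0.34 ± 0.08). The number 2 arrays carried more fibroblast marker signal than the others in every ESC group, with list medians of 0.86 in wt, 1.52 in het and 1.15 in hom relative to the wt mean and -0.68 to -0.09 elsewhere. The member medians of these arrays were -0.08, -0.26 and -0.17 and those of the other ESC arrays -0.12 to 0.07. The summed fibroblast signal in ESC was 521 to 2294 intensity units in wt, 552 to 3707 in het and 664 to 2542 in hom, against 11343 to 24889 in wt MEF. The part of fibroblast RNA in the member values was not tested.

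**Figure D5:**
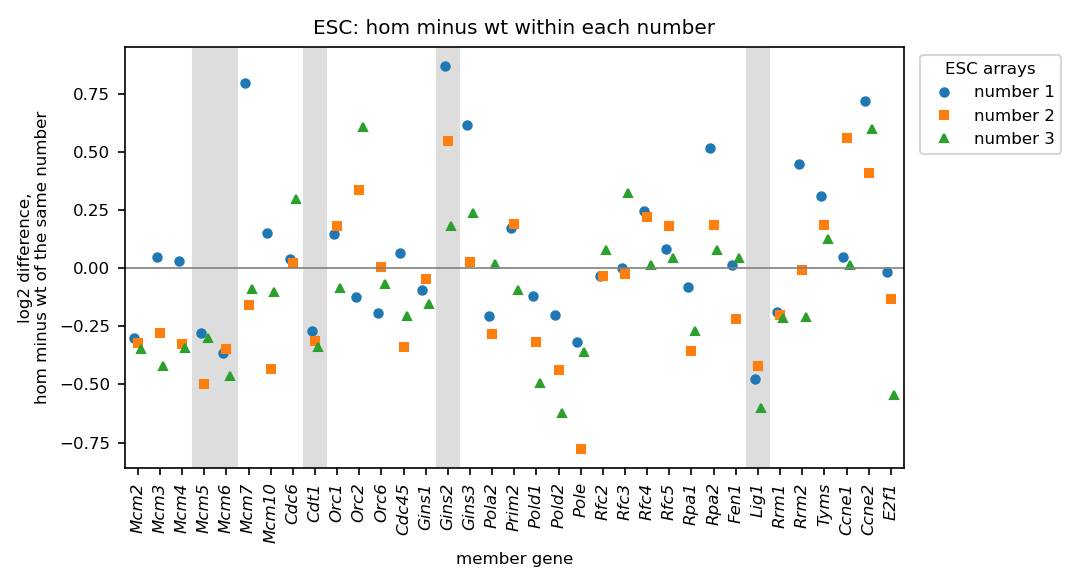
Log2 difference, ESC hom minus the wt array of the same number (y axis), for the 35 members (x axis, by role). Grey bands mark the 5 members called with the replicate block: the 3 points of Mcm5, Mcm6, Cdt1 and Lig1 lie between -0.60 and -0.27, and those of Gins2 between 0.18 and 0.87.

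The effect of the homozygous allele was also compared between the cell types by the interaction of genotype and cell type over all 20 arrays. No member passed, and 0% of 17067 probes did, with 887 at an unadjusted p under 0.05. The member median of the interaction was 0.01, and it was 0.30 without MEF hom 3 and -0.15 without MEF wt 3.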

How the data were processed

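Total RNA was labelled as biotin cRNA and hybridised to Illumina mouse bead arrays, per the labels' protocols. The deposited tables give, per probe and array, the mean intensity of its beads, not normalized, a detection p-value and a bead count, per the file headers, with BeadStudio and limma listed among the tools in the submitters' processing notes. Intensities were corrected with limma 3.58.1 in R 4.3.3 (neqc, background inferred from the deposited detection p-values, offset 16) and quantile-normalized within each cell type, or over all 20 arrays for comparisons between cell types. Probes with a detection p-value under 0.01 on at least 3 arrays were tested with lmFit and eBayes with a trend. Benjamini-Hochberg adjustment ran over all probes tested, with a threshold of 0.05. A gene was read by its tested probe with the highest mean over the 20 arrays. Of 45281 probes, 34885 had 1 symbol, 18 several and 10378 none, and none was named from a probe with several. The members and lists were chosen with earlier results of these data known. Members named in full were the 2 with the smallest p of each role group between wt ESC and wt MEF, and in genotype comparisons those past the threshold or else the 3 with the smallest p. The fit was tested on simulated data. Deviations from group means correlated at 0.367 to 0.773 in all 9 ESC pairs of one number and at -0.622 to 0.204 in the others, so numbers pair ESC arrays. In MEF same-number pairs ranged from -0.818 to 0.802, so they do not. The authors' value table deviates from the scanner values by up to 9.22% on MEF hom 3.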

Additional observations from a re-analysis of the deposited data

Results flagged for a closer look

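On the log2 scale normalized within MEF, 3 of 66 pairs of a member and a group of 4 arrays held an array far from the other 3, where chance flags about 1 in 20 such groups. Rfc2, a clamp loader subunit, was at 9.47 on MEF wt 2, and the nearest other wt array was at 9.79. Rpa2, a subunit of the single strand binding complex, was at 7.87 on MEF het 4, with the next at 7.41. Ccne2, the second cyclin E gene, was at 6.74 on MEF het 4, with the next at 6.08.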

How the results depend on the processing

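Over the alternatives run, 403 comparison values moved by less than the spread between arrays or, for counts of calls, within 1.5 times, 11 medians moved further, and 4 counts rose and 11 fell past that range. Of 210 alternative medians of members, 15 changed sign, between -0.15 and 0.12, all in comparisons of genotypes or their interaction and none between cell types. Of the values of named members, 680 kept their direction and side of the threshold, 11 gained, 46 lost the threshold and 2 reversed: Rfc4 in MEF het against wt was 0.0296 with slide as a fixed block and 0.0294 within slide 1, from -0.31. With slide as a fixed block, member medians were -0.83 (MEF hom against wt), -0.54 (MEF hom against het), 0.12 (ESC hom against wt), 1.61 (ESC against MEF in het), 2.00 (in hom) and 0.88 (interaction), and 14 members passed between wt cell types; the cause was not tested. Within slide 4, MEF hom against het had 26 calls and a median of -0.55, from 3 arrays. For hom ESC against hom MEF the median was 1.04 with no background correction, 1.00 with the authors' value table and 1.10 with no filter on dim probes. Without MEF hom 3 the interaction median was 0.30, and leaving out 1 array at a time it ranged from -0.15 to 0.30. ESC hom against wt had 5 calls with the replicate block (4.14% of all probes called). With the block and without the libraries labelled ESC het 1 and hom 1 it had 7 (7.59%), and hom against het had 1 (2.03%). Without those libraries and without the block, no member was called in either comparison. The 5 blocked calls were 3 with no background correction (3.64% of all probes called) and 3 with the authors' value table (3.56%). They were 1 with median scaling (2.3%), 2 with no filter (0.981%) and 0 with eBayes without a trend (0.476%). Leaving out 1 array at a time gave 0 to 6 calls (0.0138% to 5.41%). Lig1 was called in each of these settings except eBayes without a trend and some that left out an array. The replicate block moved no other count of calls by over 1.5 times. The fits within slides, the pair counts over numbers 2 and 3, the fits without those libraries, and the alternatives of the blocked fit, were chosen after seeing the data. Between wt cell types 27 to 30 members passed leaving out 1 array at a time, and the shares of all probes are not given here. Probes near background, such as Orc1, Orc2 and Pcna, limit what can be said of those genes.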
